A study of Homo sapiens with 2 samples.

Results

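The antiviral restriction factors described here are 10 genes, measured in FaDu cells that stably carried GLUT4 or the control vector: SAMHD1, APOBEC3B, APOBEC3C, APOBEC3F, APOBEC3G, BST2, MX1, MX2, IFITM1 and ZC3HAV1. Their members on the array were chosen by name, as every probe set for which the platform annotation gives just 1 of these 10 symbols, which found 19 probe sets of 54675. A further 2 probe sets name a member together with a related gene and are kept apart. FaDu is an established human line of head and neck squamous carcinoma, derived from the pharynx. The GLUT4 sequence, or the empty vector in the control cells, was introduced with lentivirus, and both populations were selected with puromycin for 2 weeks before total RNA was hybridized to Affymetrix Human Genome U133 Plus arrays. Each group was 1 array, so no test could be made, and a difference between the arrays covers every way in which the cell populations differed.

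Restriction factors are proteins that a cell uses to block single steps of viral replication, and many of them are induced by interferon. Interferon receptors signal through STAT factors and IRF9 to a DNA element in target promoters, the interferon-stimulated response element (ISRE). Some of these factors act on viral nucleic acid, such as the dNTP hydrolase SAMHD1, the cytidine deaminases of the APOBEC3 family and ZC3HAV1 (ZAP), which binds CpG-rich viral RNA. Others act at membranes or on capsids, such as IFITM1, BST2 (tetherin) and the dynamin-like GTPases MX1 and MX2.

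Promoter sequence was looked at for these genes because the ISRE is the element through which interferon reaches many of them. The RefSeq promoter windows of GRCh38.p14, which run from 250 bases before to 50 bases after a gene start, held 5 of the 10 genes. The ISRE core was searched as 2 copies of GAAA separated by any 2 bases, on both strands, and is in capitals below. It lies in 3.57% of the 35116 windows of all genes. IFITM1 held it at 2 places, beginning 40 and 6 bases before the start, and BST2 at 2 overlapping places, beginning 130 and 124 bases before it. MX1 has several annotated starts, and the window shown, of the most upstream one, held the core 11 bases past the start. Of its other windows, one held the core and one did not. ZC3HAV1 and SAMHD1 are shown beside them because their windows had no match to these letters. The windows lie at chr11:313790-314089 on the plus strand for IFITM1, chr19:17405581-17405880 on the minus strand for BST2, chr21:41420308-41420607 on the plus strand for MX1, chr7:139109671-139109970 on the minus strand for ZC3HAV1 and chr20:36951659-36951958 on the minus strand for SAMHD1. Each is written in the direction of the gene.
IFITM1: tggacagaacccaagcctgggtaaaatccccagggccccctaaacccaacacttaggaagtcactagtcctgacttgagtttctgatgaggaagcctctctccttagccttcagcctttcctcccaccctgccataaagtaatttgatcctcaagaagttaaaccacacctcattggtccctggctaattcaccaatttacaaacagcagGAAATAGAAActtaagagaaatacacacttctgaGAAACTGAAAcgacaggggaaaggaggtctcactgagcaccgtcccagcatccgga
BST2: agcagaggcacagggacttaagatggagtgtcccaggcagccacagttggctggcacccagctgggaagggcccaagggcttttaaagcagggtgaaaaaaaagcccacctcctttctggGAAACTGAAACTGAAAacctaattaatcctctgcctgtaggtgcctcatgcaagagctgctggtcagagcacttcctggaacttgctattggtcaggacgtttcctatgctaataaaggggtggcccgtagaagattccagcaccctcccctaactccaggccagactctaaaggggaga
MX1: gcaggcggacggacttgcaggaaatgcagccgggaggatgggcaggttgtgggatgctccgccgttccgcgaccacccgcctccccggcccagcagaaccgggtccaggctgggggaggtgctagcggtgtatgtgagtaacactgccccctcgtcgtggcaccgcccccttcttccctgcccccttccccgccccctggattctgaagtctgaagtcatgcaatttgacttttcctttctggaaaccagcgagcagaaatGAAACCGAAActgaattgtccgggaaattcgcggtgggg
ZC3HAV1: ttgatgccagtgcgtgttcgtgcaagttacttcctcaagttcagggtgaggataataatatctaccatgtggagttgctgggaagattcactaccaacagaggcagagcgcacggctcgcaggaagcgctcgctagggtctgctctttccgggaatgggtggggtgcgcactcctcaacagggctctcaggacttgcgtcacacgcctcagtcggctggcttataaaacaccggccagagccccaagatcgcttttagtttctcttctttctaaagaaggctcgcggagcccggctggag
SAMHD1: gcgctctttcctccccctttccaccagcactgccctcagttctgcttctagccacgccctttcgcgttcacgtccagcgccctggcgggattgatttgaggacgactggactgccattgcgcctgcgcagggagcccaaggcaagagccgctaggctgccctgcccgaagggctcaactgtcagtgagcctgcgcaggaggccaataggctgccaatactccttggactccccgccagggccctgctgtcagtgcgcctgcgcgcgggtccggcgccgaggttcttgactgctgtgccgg

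All values below are normalized intensities on a linear scale, and each difference is log2 of the value with GLUT4 minus log2 of the value with vector, so that negative means lower with GLUT4. The arrays had medians of 39.7 (vector) and 39.1 (GLUT4) over all probe sets, and the 18 bacterial and phage hybridization controls differed by -0.02 to 0.17. With no repeat of either array, only the error that differs between probe sets could be judged, from genes that have several of them. In 10523 such genes, the gap between the differences of the brightest pair had an SD of 0.29, and it was 0.23 in the third of genes with the highest signal. A shift that both probe sets share, from cell growth, RNA preparation or labelling, cancels in that gap. How far repeat arrays of either population would differ is thus unknown. SLC2A4, which encodes GLUT4, read 28.3 and 32.6 and does not check the labels, since it was not determined whether its probe set lies within the introduced sequence.

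With GLUT4, the restriction factors as a group had lower intensities. Each gene was represented by its main probe set, the one brightest on average, and by these all 10 genes lay below 0, as 52.2% of all 19775 genes did. This count is not firm, since APOBEC3C, APOBEC3F and APOBEC3G were within 0.03 of 0, and 8 of 10 lay below 0 with equal array medians and 9 of 10 with quantile normalization, with loess or with averaged probe sets. The median of the 10 genes was -0.41, against -0.02 over all genes. ZC3HAV1, IFITM1 and APOBEC3B were more than 1.5-fold lower, the threshold of the study's methods, so 3 of 10 genes passed on the lower side, beside 1.54% of all genes. None passed on the higher side, beside 1.84% of all genes. Over the 19 probe sets, 6 were more than 1.5-fold lower (1.22% of all probe sets) and none was more than 1.5-fold higher (2.04%), with a median of -0.42. All of the 6 lay among the 13 member probe sets above the median signal, where 1.82% of all such probe sets were that much lower. In a population of cells, less RNA per cell and fewer cells that carry the RNA cannot be told apart.

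**Figure D1:**
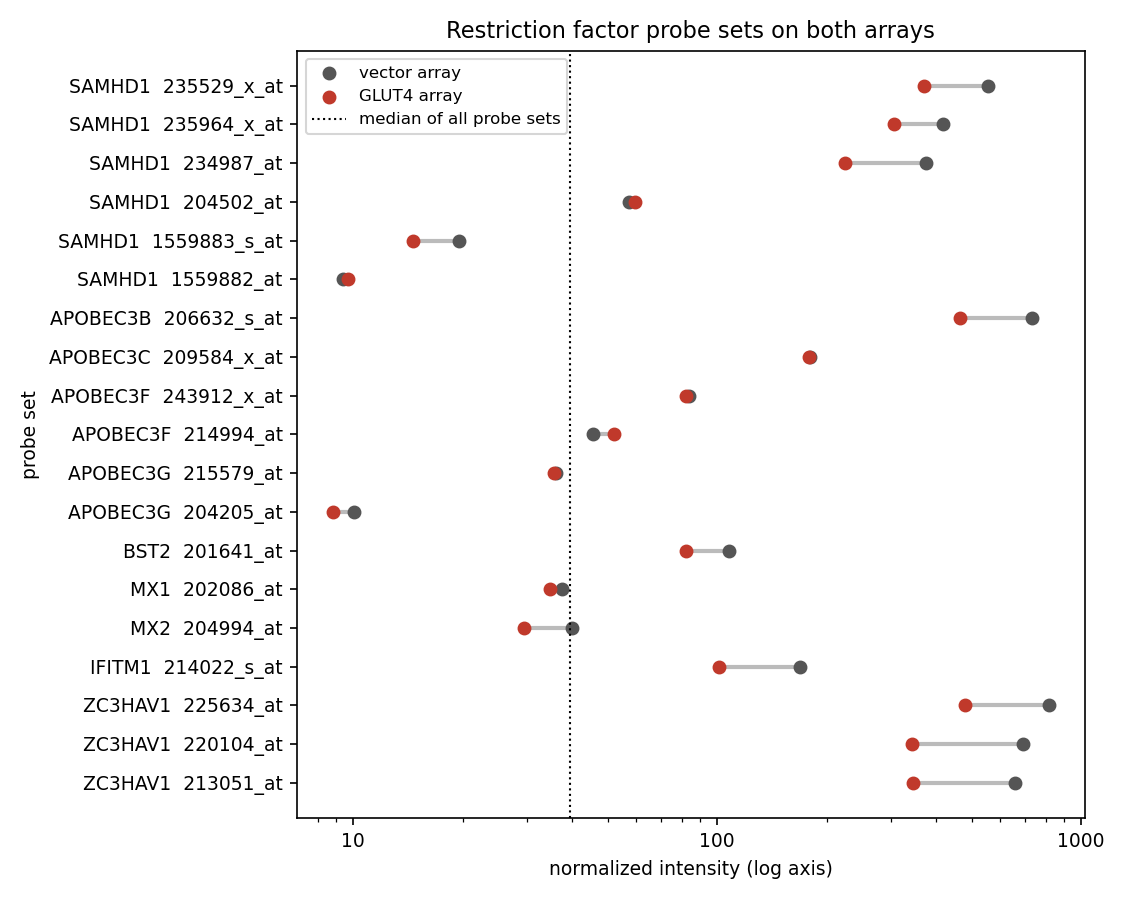
Normalized intensity (horizontal log axis) of each of the 19 probe sets on the vector array (grey) and the GLUT4 array (red), with 1 array per group and the dotted line at the median of all probe sets. The 3 ZC3HAV1 probe sets and the 3 bright SAMHD1 probe sets have the GLUT4 point to the left, and APOBEC3C has both points together at 181 and 179.

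ZC3HAV1, the zinc-finger antiviral protein, was the member with the largest difference, and each of its 3 probe sets passed 1.5-fold. Probe set 225634_at read 815 with vector and 481 with GLUT4, 1.69-fold lower. Probe set 220104_at read 690.3 and 343, 2.01-fold lower, and 213051_at read 657 and 346, 1.90-fold lower. The 3 probe sets thus moved alike, with a mean difference of -0.90 and an SD of 0.13 between them, below the SD of 0.16 that a single probe set has at high signal. Ranked from the lowest difference upward over 54675 probe sets, they took places 284, 107 and 141. The probe set that was more than 2-fold lower, 220104_at, is the only one of the 19 past that fold, a size that 0.199% of all probe sets reached on the lower side. The authors list this probe set among those they selected from these same arrays by that fold.

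SAMHD1 hydrolyses dNTPs and so limits reverse transcription, and its 6 probe sets did not move alike. The bright ones were lower with GLUT4. Probe set 235529_x_at read 556 and 371, 235964_x_at read 417 and 307, and 234987_at read 376 and 225. Their log2 differences were -0.58, -0.44 and -0.74. The first was 1.499-fold lower and so lay just inside the 1.5-fold limit, and 234987_at alone passed it. Probe set 204502_at, whose target in the annotation is a RefSeq mRNA, read 57.2 and 59.4, slightly higher with GLUT4 and above the median of all probe sets on both arrays. The remaining pair lay below that median, 1559883_s_at at 19.5 and 14.6 and 1559882_at at 9.37 and 9.66. Over all 6 the mean was -0.35 with an SD of 0.33, wider than the SD of 0.20 estimated for single probe sets over all genes. The authors list SAMHD1 with values from these arrays among the downstream genes of TRIM24. That set was taken from a pathway database and overlaid with these data, so the direction of SAMHD1 is not new evidence. Their list leaves out 204502_at and 1559882_at, the probe sets slightly higher with GLUT4.

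The APOBEC3 enzymes deaminate cytidine in single-stranded DNA, and their genes lie next to each other in a cluster. APOBEC3B had the one difference past 1.5-fold among the 4 members. It read 735 and 464 on its single probe set, 1.58-fold lower with GLUT4. APOBEC3C was nearly the same on both arrays at 181 and 179, a log2 difference of -0.01. APOBEC3F was at 83.8 and 82.3 on its main probe set (-0.03) and at 45.6 and 52.1 on the other (0.19), which was thus higher with GLUT4. APOBEC3G, a potent inhibitor of retroviruses lacking a counter-defence, was at 36.1 and 35.6 on its main probe set (-0.02) and at 10.05 and 8.81 on the other, both below the median of all probe sets. The difference of APOBEC3B exceeded those of APOBEC3C, APOBEC3F and APOBEC3G by 0.65, 0.64 and 0.64, each over 2.2 times the SD of pairs of probe sets, although those pairs come from 1 gene and these from several. A probe set that names both APOBEC3F and APOBEC3G read 24.2 and 29.2. The main probe sets of APOBEC3B, APOBEC3C and APOBEC3F carry the name endings s_at or x_at, which the manufacturer gives where probes can match several transcripts, so signal shared between these similar genes was not separated.

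Of the factors at membranes, IFITM1, which hinders fusion of enveloped viruses, read 169 and 101 on its probe set, 1.68-fold lower with GLUT4. Its neighbours in the genome were nearer to 0, with IFITM2 at 2906 and 2533 (-0.20) and IFITM3 at 5618 and 5261 (-0.09). IFITM1 thus lay 0.55 and 0.65 below these on the log2 scale. The main probe sets of IFITM1, IFITM2 and IFITM3 also carry the endings s_at or x_at, so signal shared between these genes was not separated. A probe set that names IFITM1 and IFITM2 together read 137 and 123, a difference of -0.15, so the lower value of IFITM1 rests on the single probe set 214022_s_at. BST2, which tethers budding virions to the cell surface, read 108 and 82.4, 1.31-fold lower and within the 1.5-fold limit.

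MX1 and MX2 are adjacent genes whose GTPases act on viral nucleocapsids and capsids. Both were dim. MX1 read 37.6 and 34.8, a difference of -0.11 that is smaller than the SD of 0.20 of a single probe set. MX2 read 39.9 and 29.5, 1.35-fold lower, and with an offset of 32 added to each intensity, which damps differences at low signal, it came to -0.22 in place of -0.43. The gap between MX2 and MX1 was 0.32, close to the SD of 0.29 between probe sets of the same gene, so these values do not separate them.

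**Figure D2:**
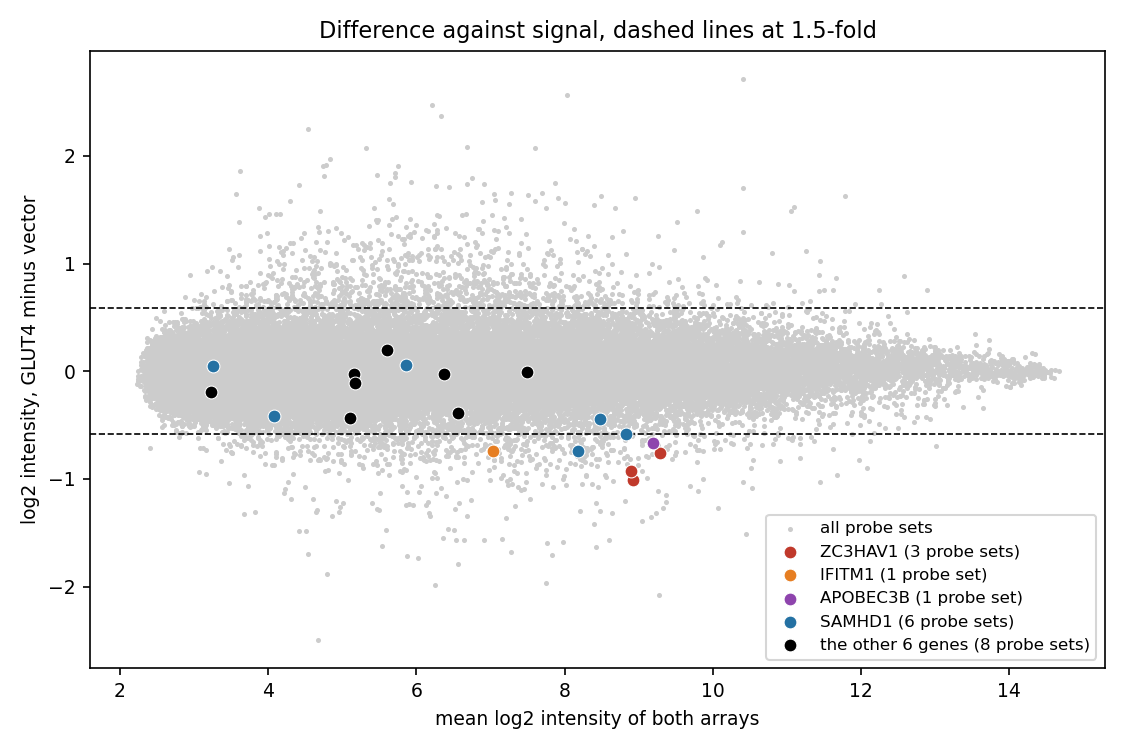
Difference in log2 intensity, GLUT4 minus vector on the vertical axis, by average log2 intensity on the horizontal axis, for all 54675 probe sets (light grey) and the 19 restriction factor probe sets (coloured by gene), with dashed lines at 1.5-fold. The 6 member points under the lower line belong to ZC3HAV1, IFITM1, APOBEC3B and SAMHD1, and none lies above the upper line.

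Other restriction factors outside the 10 genes also had a median below 0, nearer to it than that of the members. Of 38 listed, 34 were measured, 5 passed 1.5-fold on the lower side and none on the higher, and 26 lay below 0, with a median of -0.19. The ISG15 ligase HERC5 was at -1.34 and IFIT1, which binds viral RNA ends, at -0.997. TRIM22, a RING protein that inhibits viral transcription, read 46.7 and 28.0 (-0.74), ISG20, an exonuclease, 380.2 and 245 (-0.63), and GBP2, a guanylate-binding GTPase, 40.7 and 26.2 (-0.64). With the offset of 32, TRIM22, GBP2 and ISG20 came to -0.39, -0.32 and -0.57, all within 1.5-fold, which left 2 of the 5 past it. GBP2 at -0.45 and ISG20 at -0.58 were also within the limit when all their probe sets were averaged. OAS1 went the other way when averaged, from -0.24 on its main probe set to -0.58, just within the limit. OAS1 has 2 probe sets. The authors list the dimmer one from these arrays as more than 1.5-fold lower, and the main one as lower within that limit. The modifier ISG15 itself read 1109 and 768 (-0.53), within the limit.

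Lists of genes related to the members, as partners, by gene family or through interferon signalling, had medians nearer to 0. Of 26 ZAP cofactors and PARP family genes, RIGI was more than 1.5-fold lower, from 1000.1 to 414. RIGI is the cytosolic RNA sensor that the paper calls DDX58. The authors report its drop on these same arrays, so it is not new evidence. On their main probe sets, the other 25 genes were within the limit, with a median of -0.11 over the list of 26. Among them TRIM25, a ligase that ZAP needs for full activity, read 861 and 818 (-0.07), and KHNYN, a nuclease partner of ZAP, 393 and 514 (0.39), slightly higher with GLUT4. Of 21 genes of dNTP metabolism and SAMHD1 partners, none was past 1.5-fold in either direction, and the median was -0.04. RRM2, a subunit of the reductase that makes dNTPs, read 5094 and 4769, and CDK1, a kinase that phosphorylates SAMHD1, 4650 and 4389. Of 21 interferon signalling genes, SOCS3, a feedback inhibitor, was more than 1.5-fold lower at -0.67, and the median was -0.07. Averaged over its 4 probe sets, SOCS3 came to -0.35 and was within the limit. Averaging moved other genes of these lists farther from 0, though not past the limit. IRF1 went from -0.14 to -0.46 and PARP8 from -0.30 to -0.55, each averaged over 2 probe sets. An average within the limit does not show that every probe set was. The authors list the dimmer IRF1 probe set from these arrays as more than 1.5-fold lower. IRF9, the DNA-binding subunit of the factor that reads the ISRE, was at 154 and 147.

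**Figure D3:**
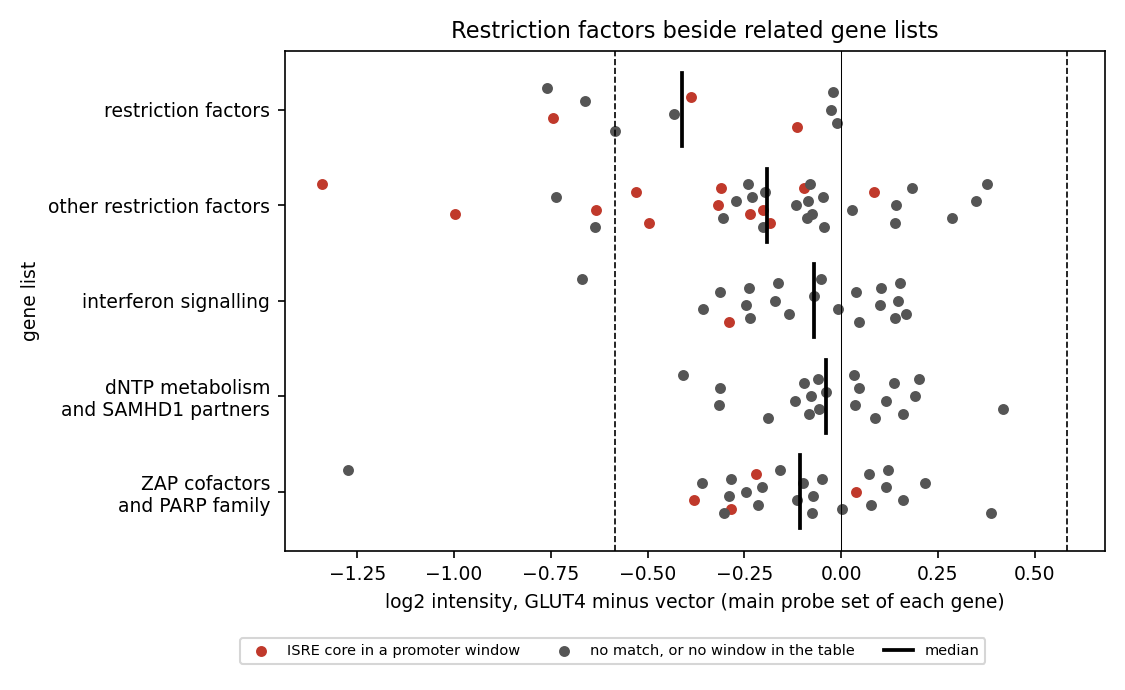
Difference in log2 intensity, GLUT4 minus vector, of the main probe set of each gene (horizontal axis) for the 10 restriction factors and the related lists (vertical axis), with dashed lines at 1.5-fold and a bar at each list's median. Red points are genes with an ISRE core in a promoter window, and the medians run from -0.41 for the restriction factors to -0.04 for the dNTP list.

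The ISRE core was then set beside the differences over all genes. Of 613 measured genes with the core in a promoter window, 3.75% were more than 1.5-fold lower and 2.12% more than 1.5-fold higher, with a median of -0.04. Of 14771 genes with a window and no match, 1.39% were more than 1.5-fold lower and 1.86% higher, with a median of -0.01. Among the other restriction factors, 12 of the 25 with a window held the core. Of these, 3 passed 1.5-fold on the lower side on their main probe sets, HERC5, IFIT1 and ISG20, against none of the 13 without it. ISG20 was within the limit with the offset of 32 (-0.57) and with averaged probe sets (-0.58). OAS1, among the 13 without the core, was also at -0.58 when averaged. Its dimmer probe set is listed by the authors as more than 1.5-fold lower. The contrast is also incomplete, since TRIM22 (-0.74) and GBP2 (-0.64), lowered genes of the same list, had no window. The lowered member APOBEC3B (-0.66) had none either. In the related lists, RIGI (-1.27) and SOCS3 (-0.67) were lowered and had a window with no core. IFITM1, with 2 matches, was at -0.75, BST2, also with 2, at -0.39 and MX1, with 1 in the window printed above, at -0.11, while ZC3HAV1 and SAMHD1, with none, were at -0.76 and -0.58. A match is a description of these letters and not a measured binding site.

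Markers of cell types were looked at beside these values. The lowest intensity of any probe set was 4.62 with vector and 4.15 with GLUT4, so a value above 0 does not show that a marker was present. Of 8 squamous epithelium markers, 5 were measured, and FaDu cells had bright keratins on both arrays, with KRT5 at 11024 and 13093. KRT14 was past 1.5-fold on the higher side at 1963 and 3985, and the adhesion molecule EPCAM on the lower side at 5361 and 3020.5. Within 1.5-fold were CDH1 at 3223 and 2224 (-0.54) and DSG3 at 516 and 556 (0.11). Of 8 leukocyte markers, 5 lay below the median signal, the summed intensity of all 8 was 474 with vector and 346 with GLUT4, and the common leukocyte antigen PTPRC read 8.30 and 8.14. CD14, a receptor of myeloid cells, was the one of these past 1.5-fold, at 251 and 143. Of 6 fibroblast markers, with a summed intensity of 834 and 1459, the matrix proteoglycans DCN at 482 and 1050.1 and LUM at 38.5 and 79.9 were past 1.5-fold on the higher side, and COL1A1 read 224 and 226. Of 4 endothelium markers, with a sum of 226 and 138, PECAM1 was lower at 141 and 48.2 and the other 3 were within 1.5-fold. Of 3 plasmacytoid dendritic cell markers, with a sum of 122 and 119, none was past 1.5-fold. The part of these differences in those of the restriction factors was not tested.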

How the data were processed

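Total RNA of FaDu cells carrying GLUT4 or the control vector was labelled from the end of the transcript and measured with 1 array per group. The deposited values are intensities on a linear scale. According to the methods, the authors normalized log2 values in GeneSpring. MAS5 also stands in the submitters' processing notes, and the order of both steps is not given in the sources read. Normalization between arrays sets differences relative to all probe sets, and no detection calls were used.

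Intensities were floored at 1 and turned to log2. Of 54675 probe sets, 41097 named 1 gene, 1801 several and 11777 none; symbols were updated through gene identifiers of RefSeq (GRCh38.p14), giving 19775 genes. Each gene was taken at its main probe set, the one brightest on average. Differences were counted past 1.5-fold, with no test. The number of arrays limits the precision, and no depth applies to an array. The members and lists were chosen with earlier results of these data known. All members were named. From the other lists, the genes past 1.5-fold were named with a fixed set of member partners (TRIM25, KHNYN, IFITM2, IFITM3, IRF9, RRM2 and CDK1). ISG15, OAS1, IRF1, PARP8 and the markers printed were chosen after their values were seen. The procedure was tested on simulated data. Alternatives were equal medians, quantile normalization, loess (fraction 0.3), an offset of 32, averaged probe sets, leaving out x_at and s_at names, and a filter at the median signal. Python 3.11.15, numpy 2.4.6, pandas 2.3.3, statsmodels 0.14.6 and matplotlib 3.10.9 were used.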

Additional observations from a re-analysis of the deposited data

How the results depend on the processing

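The number of restriction factor genes more than 1.5-fold lower was 3, and ranged from 2 to 4 over the alternatives. Quantile normalization and loess added SAMHD1 to ZC3HAV1, IFITM1 and APOBEC3B. Leaving out probe sets with x_at or s_at names left 7 of the 10 genes measured and called SAMHD1, by another probe set, and ZC3HAV1. No restriction factor gene was more than 1.5-fold higher under any of the 7 alternatives, and their median ran from -0.58, with dim probe sets left out, to -0.26, with the offset of 32. The count of other restriction factors more than 1.5-fold lower went from 5 to 3 with averaged probe sets, to 2 with the offset and to 3 with dim probe sets left out, and that of interferon signalling genes from 1 to 0 with averaged probe sets, since SOCS3 has several that differ. Among single genes, SAMHD1 moved to -0.35 with averaged probe sets and APOBEC3F to 0.19 without x_at and s_at names. No paired analysis was possible because each group had 1 array. Dim genes such as MX1, MX2 and APOBEC3G lie near or below the median signal, and no detection calls were used that would say whether they were above background.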
